A study of Mus musculus with 9 samples.

Results

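The nuclear genes of oxidative phosphorylation were examined in the livers of mice given oleanolic acid (OA), which causes cholestatic liver injury, with or without prior ZnPP, and of control mice. The members are the genes of the deposited table that carry the KEGG oxidative phosphorylation entry, without the 13 mitochondrially encoded genes and the 22 genes of the vacuolar ATPase. This left 94 of 36119 genes. They comprise 37 genes of complex I, 4 of complex II, 9 of complex III, 19 subunit genes and 4 assembly genes of complex IV, 15 genes of complex V, and 6 other genes under the entry. The 6 others are the pyrophosphatase genes Ppa1, Ppa2 and Lhpp, the proton pump genes Atp4a and Atp12a, and a non-coding RNA (ENSMUSG00000120425). Ndufb4c, counted with complex I, is annotated in the table as a processed pseudogene.

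RNA was taken from whole livers of male wild type C57BL/6J mice, aged 6 to 8 weeks and treated for 4 days. The ZnPP+OA group (n = 3) was injected with ZnPP, zinc protoporphyrin, an inhibitor of heme oxygenase 1, at 20 mg/kg 2 h before OA by gavage. The OA group (n = 3) was given saline in place of ZnPP, then OA, at a dose of 295.5 mg/kg in the sample labels and 295.92 mg/kg in the treatment protocol. The Cont group (n = 3) was given saline and then corn oil by gavage. Since there were no livers with ZnPP and no OA, what ZnPP does by itself cannot be told apart from its effect on OA livers. All mice were fasted for 12 h before the livers were collected.

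Oxidative phosphorylation is carried out by protein complexes of the inner mitochondrial membrane. Complexes I to IV pass electrons from NADH and succinate to oxygen, and all of them but complex II pump protons. Complex V, the ATP synthase, uses the proton gradient to make ATP. Most subunits are encoded in the nucleus, and a smaller set, including the catalytic subunits of complex IV, is encoded in mitochondrial DNA. Hepatocytes hold many mitochondria, and impaired respiration is a known feature of cholestatic liver injury.

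Libraries held 32639438 to 85060187 counts. Mitochondrial genes took 59.0% to 68.7% of the counts in ZnPP+OA livers, 13.7% to 38.2% in OA livers and 43.2% to 74.7% in Cont livers. Once those genes and their nuclear copies were taken away, 9417867 to 12713311 counts were left in ZnPP+OA livers, 31232063 to 70295836 in OA livers and 4946748 to 23122403 in Cont livers, with Cont 2 the lowest. All 12 genes of secreted hepatocyte proteins checked against the tissue label had counts in every library. Levels are given below as CPM, counts scaled to a common library size with TMM factors (the trimmed mean of M values), or as FPKM where genes are compared with each other, since FPKM also divides by gene length. Log2 fold changes come from edgeR, in 1 fit of the 3 groups, are those of OA over Cont livers, ZnPP+OA over OA livers or ZnPP+OA over Cont livers, and are given with their SE. A gene was called at an adjusted p under 0.05. In bulk liver, fewer cells of a type and less RNA per cell cannot be told apart.

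As a share of the counts, with either of 2 denominators, the members together were highest in OA livers, by an amount that depended on the denominator. They made up 0.187%, 0.112% and 0.206% of all counts in ZnPP+OA livers, 0.516%, 0.947% and 1.01% in OA livers, and 0.367%, 0.0697% and 0.384% in Cont livers. The share was lowest in Cont 2, the library with the most mitochondrial counts. When mitochondrial genes and their copies were taken out of the total, the members took 0.841%, 0.712% and 0.797% in ZnPP+OA livers, 0.983%, 1.26% and 1.22% in OA livers, and 0.792%, 0.872% and 0.928% in Cont livers. With this denominator the OA livers still lay above all others, while the Cont livers came close together. In TMM-scaled CPM this order did not hold. The members summed to 2529, 2366 and 2724 CPM in ZnPP+OA livers, 2822, 3922 and 3984 CPM in OA livers, and 3621, 2632 and 3061 CPM in Cont livers. On that scale OA 1 lay below Cont 1 and Cont 3. Summed over the genes, the FPKM of the mitochondrially encoded subunits was 508 to 1059 times that of the members in ZnPP+OA livers, 23.0 to 116.3 times in OA livers and 201 to 1752 times in Cont livers. With all counts as the denominator, the members' share was thus highest in the group with the least mitochondrial RNA and lowest in the library with the most. The part of mitochondrial RNA in the results below was not tested.

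**Figure D1:**
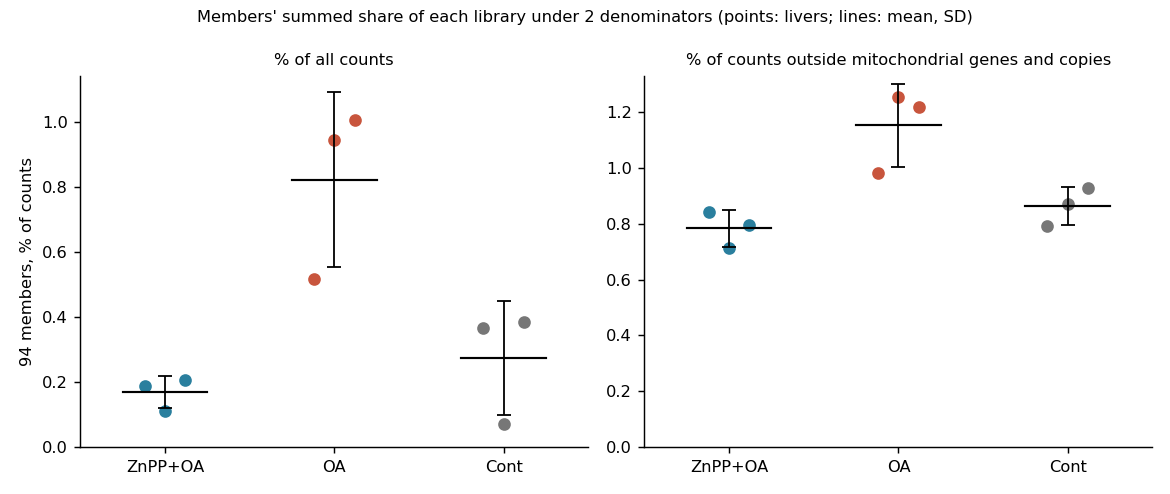
Share of the counts taken by the 94 members in each liver, as a percentage of all counts (left) and of what is left without mitochondrial genes and their copies (right); points are livers, lines the group mean and SD (n = 3). The OA livers are highest in both panels, at 0.516% to 1.01% on the left and 0.983% to 1.26% on the right.

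Levels differed widely between members. Levels are described here with a line at 1 FPKM that was drawn after the values had been seen. Over the 9 libraries the mean FPKM was at least 1 for 87 members, with a median of 18.4 FPKM over the 94. Uqcrq, a small subunit of complex III, had the highest mean at 124 FPKM, followed by Cox6a1 (111 FPKM) and Cox4i1 (109 FPKM), structural subunits of complex IV. The highest means elsewhere were 66.1 FPKM for Ndufa2 and 50.9 FPKM for Ndufb11 in complex I, 32.3 FPKM for Sdhd and 20.5 FPKM for Sdhb in complex II, 65.7 FPKM for Uqcr10 in complex III, and 62.4 FPKM for Atp5a1 and 60.8 FPKM for Atp5h in complex V. Of the 94 members, 90 passed the filter on low counts. Cox8b was at 0 in every library, and Cox6a2, Cox7b2 and Atp12a had no more than 0.726 CPM in any. Atp4a, Cox4i2 and Cox7a1 passed but stayed under 1 CPM in every liver, so no fold change is given for them.

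In OA livers 1 member rose and none fell against Cont livers. This is 1.11% of the 90 members tested, against 5.21% of all genes tested in that comparison (984 of 18895). An unadjusted p under 0.05 was reached by 14 members (15.6%), against 21.9% of all genes. The median log2 fold change of the members was 0.26, against 0.09 over all genes, and 51 of 90 lay above the median of all genes. All 3 OA livers lay above all 3 Cont livers for 17 members (18.9%) and below them for 4 (4.44%), against 18.5% and 10.6% of all genes. The first share was near that of genes at large.

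In ZnPP+OA livers 2 members fell and none rose against OA livers. This is 2.22% of the members, against 2.87% of all genes (542 of 18895). An unadjusted p under 0.05 was reached by 28 members (31.1%), against 18.1% of all genes, and the median log2 fold change was −0.48, against −0.07 over all genes. All 3 ZnPP+OA livers lay below all 3 OA livers for 34 members (37.8%), against 19.2% of all genes, and above them for 3 (3.33%), against 13.6% of all genes. Both comparisons use the same OA livers, so their values are given side by side and are not independent.

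No member was called between ZnPP+OA and Cont livers by edgeR, by DESeq2 or by limma on FPKM. In the edgeR fit 0.0% of all genes were called, with 1542 genes (8.16%) and 7 members (7.78%) at an unadjusted p under 0.05, and DESeq2 called 54 genes higher and 86 lower. The median log2 fold change of the members was −0.29, against −0.02 over all genes. All 3 ZnPP+OA livers lay below all 3 Cont livers for 16 members (17.8%), against 4.52% of all genes. They lay above them for 1 member (1.11%), and for 1084 of the 18895 genes tested. Less the median of all genes, the members' median was −0.27, and −0.35 to −0.14 over 25 alternatives. The value of −0.14 came without Cont 1.

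Cox7a2, the widely expressed isoform of a small subunit of complex IV, was the member called in both directions. Its level was 19.5, 14.2 and 15.9 CPM in ZnPP+OA livers, 27.6, 47.9 and 51.3 CPM in OA livers, and 15.0, 15.4 and 21.6 CPM in Cont livers. Every OA liver lay above every other liver, OA 1 being the lowest of them, and ZnPP+OA and Cont livers overlapped. The log2 fold change was 1.29 ± 0.32 (adjusted p = 0.0353, edgeR quasi-likelihood test) between OA and Cont livers, and −1.36 ± 0.32 (adjusted p = 0.0399) between ZnPP+OA and OA livers. Ndufa4, first assigned to complex I and now counted with complex IV, was at 22.9, 20.8 and 23.4 CPM in ZnPP+OA livers, 39.1, 74.5 and 70.4 CPM in OA livers, and 49.4, 29.7 and 48.6 CPM in Cont livers. It fell in ZnPP+OA livers to the lowest values of the 9, with a log2 fold change of −1.46 ± 0.33 against OA livers (adjusted p = 0.0319), while OA and Cont livers overlapped (0.53 ± 0.32, adjusted p = 0.37).

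These calls were close to the threshold. The rise of Cox7a2 in OA livers lost its call without Cont 1 (adjusted p = 0.0821), Cont 2 (0.0927), OA 2 (0.152), OA 3 (0.164), ZnPP+OA 1 (0.0533), ZnPP+OA 2 (0.0504) or ZnPP+OA 3 (0.054), and with DESeq2 size factors (0.0501). The fall of Cox7a2 in ZnPP+OA livers lost its call without OA 2 (0.189), OA 3 (0.202), ZnPP+OA 1 (0.0832), ZnPP+OA 2 (0.199) or ZnPP+OA 3 (0.151), and that of Ndufa4 without OA 2 (0.167), OA 3 (0.151), ZnPP+OA 1 (0.0993), ZnPP+OA 2 (0.172) or ZnPP+OA 3 (0.125). The log2 fold change stayed between 1.15 and 1.55 for the rise of Cox7a2, between −1.62 and −1.21 for its fall and between −1.72 and −1.32 for the fall of Ndufa4 when any library was left out. Without OA 2 and OA 3 together, these values were 0.68, −0.76 and −0.82, and none was called. When counts were scaled to the members' own total, neither gene was called (Cox7a2 0.087 and 0.174, Ndufa4 0.104), and Lhpp was the member called, higher in ZnPP+OA than in OA livers (log2 fold change 1.81, adjusted p = 0.0371).

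**Figure D2:**
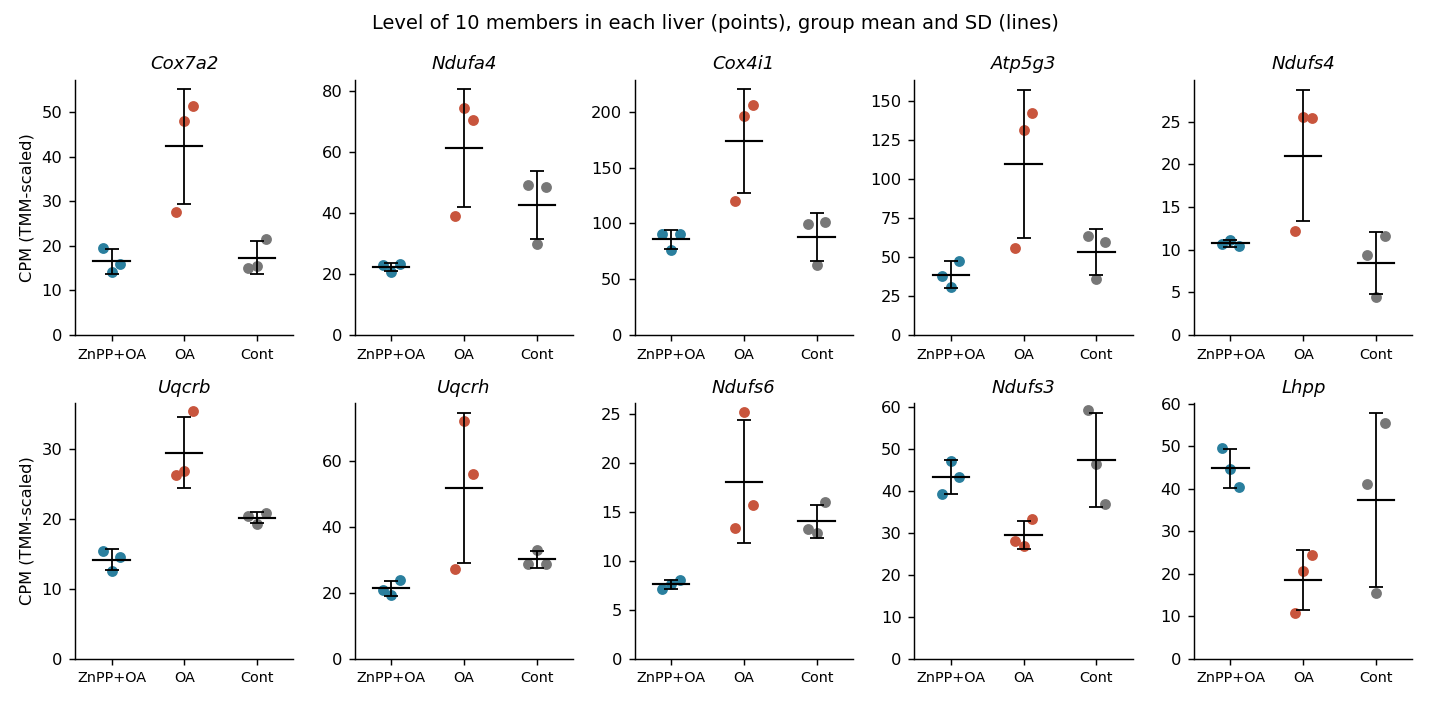
Level of 10 members in each liver (points), in TMM-scaled CPM, with the group mean and SD (n = 3), for ZnPP+OA, OA and Cont livers from left to right. Cox7a2 reaches 27.6 to 51.3 CPM in OA livers and no more than 21.6 CPM elsewhere, Ndufa4 is at 20.8 to 23.4 CPM in ZnPP+OA livers, and Ndufs3 and Lhpp have their lowest group mean in OA livers.

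The stretches upstream of the called members and of others described below show which elements of known regulators of respiratory genes they hold. Nuclear respiratory factor 1 (NRF1), GABPA (also called NRF2, and distinct from the stress regulator Nrf2 encoded by Nfe2l2) and YY1 are factors that bind promoters of many respiratory genes. Windows of 250 bases before and 50 after the transcription start in RefSeq (build GRCm38.p6) matched 74 of the 94 members. The letters GCGCANGCGC (NRF1), CCGGAAG (GABPA) and AAGATGGC (YY1) were searched on both strands, and no places of different motifs shared a base. The NRF1 letters were in the windows of 18 members (24.3%), against 5.19% of 27025 genes, the GABPA letters in 18 (24.3%), against 9.93%, and the YY1 letters in 11 (14.9%), against 3.19%. Below, the 200 bases from −170 to +30 are given on the gene's strand, all minus, with any motif in capitals. Cox7a2 (chr9:79759824-79760023) and Ndufa4 (chr6:11907421-11907620) hold none of the 3. Cox6a1 (chr5:115348929-115349128) holds 2 NRF1 places and 1 GABPA place, Uqcrh (chr4:116075041-116075240) 1 GABPA place, and Ndufs3 (chr2:90904692-90904891), lowest in OA livers, 2 GABPA places.
Cox7a2: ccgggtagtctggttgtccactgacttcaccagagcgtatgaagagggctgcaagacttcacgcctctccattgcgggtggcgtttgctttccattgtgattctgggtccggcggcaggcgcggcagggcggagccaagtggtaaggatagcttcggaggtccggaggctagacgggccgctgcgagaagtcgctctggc
Ndufa4: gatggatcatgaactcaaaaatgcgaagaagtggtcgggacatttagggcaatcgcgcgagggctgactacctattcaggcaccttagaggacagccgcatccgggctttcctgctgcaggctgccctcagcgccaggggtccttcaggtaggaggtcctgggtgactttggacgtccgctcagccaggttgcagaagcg
Cox6a1: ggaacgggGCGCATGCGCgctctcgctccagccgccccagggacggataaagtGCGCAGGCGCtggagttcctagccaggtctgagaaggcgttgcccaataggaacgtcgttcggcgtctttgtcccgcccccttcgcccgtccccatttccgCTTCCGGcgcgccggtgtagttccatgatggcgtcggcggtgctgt
Uqcrh: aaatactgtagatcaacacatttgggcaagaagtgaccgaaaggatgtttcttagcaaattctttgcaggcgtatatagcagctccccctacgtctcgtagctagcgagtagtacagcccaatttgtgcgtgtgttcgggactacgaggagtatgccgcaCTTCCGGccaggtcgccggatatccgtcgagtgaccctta
Ndufs3: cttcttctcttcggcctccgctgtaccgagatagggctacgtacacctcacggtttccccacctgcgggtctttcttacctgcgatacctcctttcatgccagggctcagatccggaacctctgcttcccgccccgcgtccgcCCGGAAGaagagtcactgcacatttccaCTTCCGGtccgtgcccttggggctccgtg
A match is a description of the letters only.

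Complex I, the NADH dehydrogenase, had no called subunit in any comparison. Of its 37 genes, 21 had a log2 fold change above 0 between OA and Cont livers (median 0.06, against 0.09 over all genes), and 30 had one below 0 between ZnPP+OA and OA livers (median −0.46, against −0.07). The highest log2 fold change in OA livers was that of Ndufs4, an accessory subunit needed late in assembly. Ndufs4 was at 10.6, 11.2 and 10.4 CPM in ZnPP+OA livers, 12.2, 25.5 and 25.4 CPM in OA livers, and 9.41, 4.45 and 11.6 CPM in Cont livers. OA livers did not overlap with either group, but OA 1 stood within 1 CPM of the highest of the others (log2 fold change of OA against Cont 1.30 ± 0.39, adjusted p = 0.0759). The lowest of complex I was Ndufs3, a core subunit of the matrix arm, at 39.4, 47.3 and 43.4 CPM in ZnPP+OA livers, 28.2, 26.9 and 33.3 CPM in OA livers, and 59.3, 46.4 and 36.9 CPM in Cont livers. Ndufs3 was the only member of the 90 with all 3 OA livers below all other livers (OA against Cont −0.69 ± 0.28, adjusted p = 0.165). All 3 OA livers lay above the 6 others for 12 members, and all 3 ZnPP+OA livers lay below the 6 others for 7. Such orders against 6 livers, here and below, were counted over the members only. How common they are among all genes is not known.

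Among the accessory subunits of complex I, several were lowest in ZnPP+OA livers. Ndufs6, which helps to build the NADH-oxidising module, was at 7.16, 7.66 and 8.01 CPM in ZnPP+OA livers, 13.4, 25.2 and 15.7 CPM in OA livers, and 13.3, 12.9 and 16.0 CPM in Cont livers. Its ZnPP+OA livers lay below all 6 others, and the log2 fold change against OA livers was −1.25 ± 0.31 (adjusted p = 0.0519). Ndufa11, a membrane arm subunit, showed the same order, at 13.2, 12.9 and 16.4 CPM in ZnPP+OA livers, 28.7, 25.7 and 28.2 CPM in OA livers, and 33.9, 26.7 and 21.3 CPM in Cont livers (ZnPP+OA against OA −0.96 ± 0.28, adjusted p = 0.0896). Ndufa2 (−1.05 ± 0.32, adjusted p = 0.102) was lower without a call, and its values in ZnPP+OA livers overlapped with those in Cont livers. Ndufb8, a membrane arm subunit, had a log2 fold change of 0.70 ± 0.31 between OA and Cont livers (adjusted p = 0.209).

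After these values had been seen, the complex I genes were split by role. The 7 nuclear core subunits, which form the catalytic part of the matrix arm, are shared with bacterial complex I, and the 29 supernumerary subunits surround them. The core subunits took 20.7%, 24.4% and 23.7% of the summed FPKM of complex I in ZnPP+OA livers, 17.6%, 16.3% and 18.2% in OA livers, and 20.3%, 20.6% and 19.1% in Cont livers. No liver of a group reached into the range of another group, and the same held for shares of CPM (30.2%, 34.4% and 32.4% in ZnPP+OA livers, 25.6%, 25.4% and 26.4% in OA livers, and 28.8%, 29.4% and 28.4% in Cont livers). As a ratio within a library, this share is not changed by the scaling between libraries. The median log2 fold change of the core subunits was −0.23 between OA and Cont livers and −0.08 between ZnPP+OA and OA livers, and that of the supernumerary subunits was 0.12 and −0.50. Since the split was made with these values known, no test is given.

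**Figure D3:**
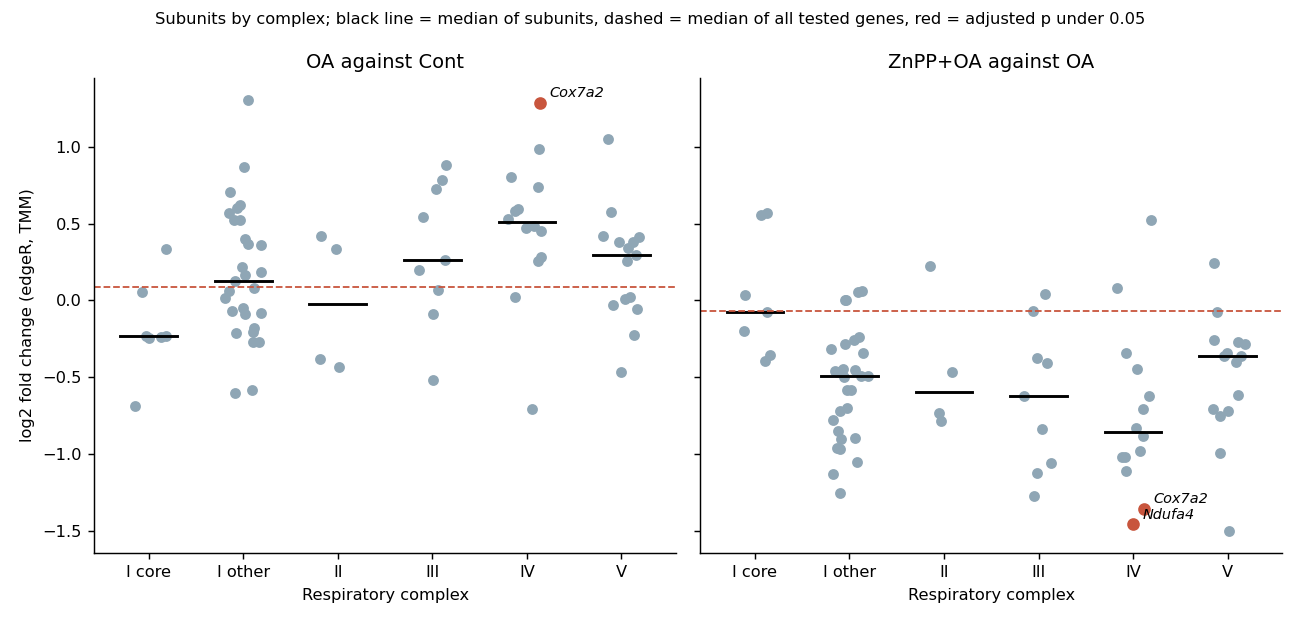
Log2 fold change of each subunit (points) by respiratory complex, between OA and Cont livers and between ZnPP+OA and OA livers, without Cox4i2, Cox7a1 and Ndufb4c; the black line is the median of the subunits, the dashed line that of all genes tested (0.09 and −0.07), and red points passed an adjusted p of 0.05. Complex IV has the highest median on the left (0.51), and also the lowest on the right (−0.86).

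Complex II, succinate dehydrogenase, is encoded wholly in the nucleus, and none of its 4 genes was called. Sdha, the flavoprotein subunit, was at 28.2, 30.1 and 37.4 CPM in ZnPP+OA livers, 24.0, 49.8 and 58.4 CPM in OA livers, and 91.5, 42.0 and 38.6 CPM in Cont livers, with Cont 1 the highest of the 9. Sdhb, the iron-sulfur subunit, had log2 fold changes of −0.44 ± 0.30 between OA and Cont livers and 0.23 ± 0.30 between ZnPP+OA and OA livers (SE). The membrane anchors Sdhc and Sdhd had 0.34 ± 0.30 and 0.42 ± 0.46 between OA and Cont livers, and −0.73 ± 0.30 and −0.79 ± 0.46 between ZnPP+OA and OA livers, the smallest adjusted p being 0.22.

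Complex III, the cytochrome bc1 complex, had no called member, and its largest differences were in some of its small subunits. Uqcrq, also a small subunit, took on average 5.55% of the members' counts in ZnPP+OA livers, 6.23% in OA livers and 6.23% in Cont livers. The small subunit gene Uqcrb was at 15.4, 12.6 and 14.5 CPM in ZnPP+OA livers, 26.3, 26.8 and 35.4 CPM in OA livers, and 20.5, 19.3 and 20.9 CPM in Cont livers. It was the only member for which the 3 groups stood fully apart in the order OA, Cont, ZnPP+OA, and its log2 fold change between ZnPP+OA and OA livers was −1.06 ± 0.27 (adjusted p = 0.0533). Uqcrh, the hinge protein that binds cytochrome c1, was at 20.9, 19.4 and 23.9 CPM in ZnPP+OA livers, 27.0, 72.1 and 56.0 CPM in OA livers, and 28.7, 33.0 and 28.7 CPM in Cont livers (ZnPP+OA against OA −1.27 ± 0.34, adjusted p = 0.0692), with OA 1 below the Cont livers. Uqcr10 and Uqcr11, other small subunits, had 0.88 ± 0.34 and 0.72 ± 0.31 between OA and Cont livers (adjusted p = 0.156 and 0.198), and −1.12 ± 0.35 and −0.84 ± 0.31 between ZnPP+OA and OA livers (0.107 and 0.172). The large core proteins Uqcrc1 and Uqcrc2, Cyc1 and the Rieske protein gene Uqcrfs1 had log2 fold changes between −0.52 and 0.26 in the first comparison.

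Complex IV, cytochrome c oxidase, held all the calls. Of its 19 subunit genes, 14 had a mean of at least 1 FPKM, a subset taken after the values had been seen. For these the median log2 fold change was 0.51 between OA and Cont livers (13 of 14 above 0) and −0.86 between ZnPP+OA and OA livers (12 of 14 below 0). Cox4i1, which encodes a large nuclear subunit that binds regulatory nucleotides, was at 90.3, 76.2 and 90.8 CPM in ZnPP+OA livers, 120, 196 and 206 CPM in OA livers, and 99.6, 63.2 and 101 CPM in Cont livers. Its OA livers lay above all others, without a call (0.98 ± 0.32, adjusted p = 0.0958 between OA and Cont livers, and −1.02 ± 0.32, adjusted p = 0.113 between ZnPP+OA and OA livers). Cox6a1 was at 41.8, 33.6 and 34.1 CPM in ZnPP+OA livers, 66.0, 76.8 and 93.4 CPM in OA livers, and 68.6, 40.1 and 48.8 CPM in Cont livers (ZnPP+OA against OA −1.11 ± 0.30, adjusted p = 0.069). Cox6b1 and Cox6c had all 3 OA livers above the 6 others, with log2 fold changes of 0.74 ± 0.28 (adjusted p = 0.152) and 0.81 ± 0.30 (adjusted p = 0.138) between OA and Cont livers. Cox8a had −0.98 ± 0.32 (adjusted p = 0.119) and Cox7b −0.45 ± 0.28 (adjusted p = 0.451) between ZnPP+OA and OA livers. The 4 assembly genes under the entry, Cox10, Cox11, Cox15 and Cox17, which make heme a or deliver copper, were not called.

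The weight of complex IV within the subunits was highest in OA livers. It took 24.0%, 22.9% and 22.8% of the summed FPKM of the subunits of the 5 complexes in ZnPP+OA livers, 27.2%, 28.6% and 30.1% in OA livers, and 23.6%, 20.7% and 22.7% in Cont livers. The OA livers did not overlap with either group, and ZnPP+OA and Cont livers did overlap with each other. The OA livers were also apart with CPM, at 16.1% ± 0.739 in ZnPP+OA livers, 21.0% ± 0.961 in OA livers and 15.5% ± 0.88 in Cont livers (SD, n = 3), and without Uqcrq, the subunit with the highest level. The share of complex V was 21.9% ± 1.903 in ZnPP+OA livers, 18.8% ± 1.65 in OA livers and 20.8% ± 1.61 in Cont livers (SD, n = 3), and the lowest ZnPP+OA liver (20.7%) lay above the highest OA liver (20.3%). With CPM these groups overlapped for complex V, at 30.5% to 35.7% in ZnPP+OA livers and 26.7% to 32.2% in OA livers. The shares of complexes II and III overlapped between OA livers and both other groups, and complex I took 34.3% ± 1.45 in ZnPP+OA, 31.3% ± 2.78 in OA and 35.9% ± 2.59 in Cont livers (SD, n = 3 each). Without Uqcrq, however, complex III took 12.7% to 14.2% of the FPKM in OA livers and no more than 12.6% elsewhere. With CPM and without Uqcrq, the OA livers overlapped with both other groups for complex III.

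**Figure D4:**
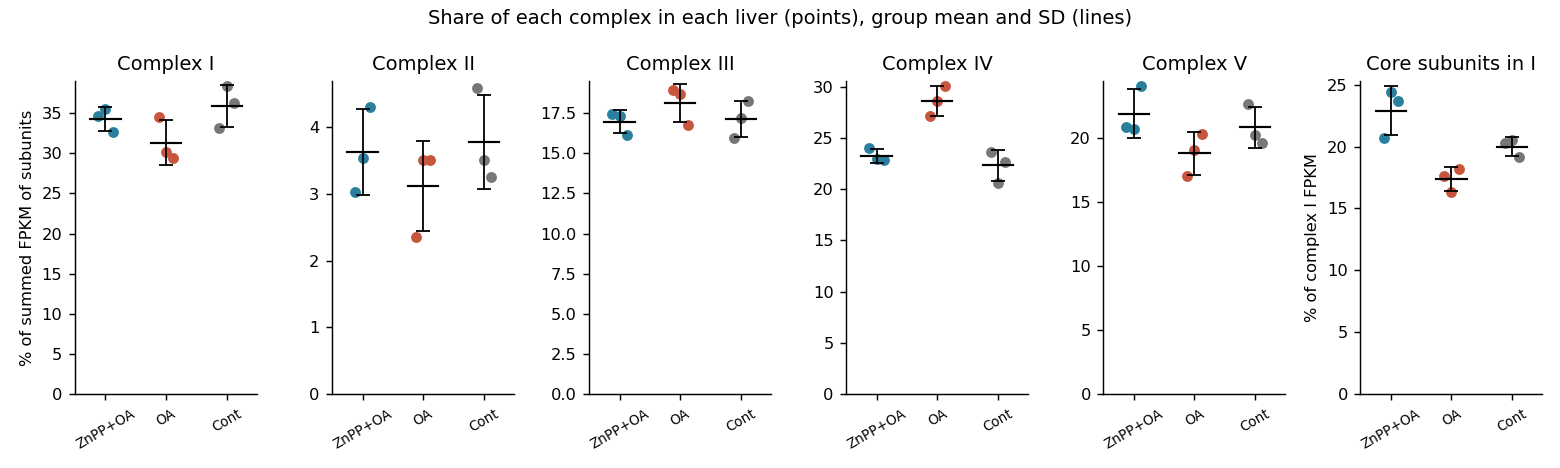
Share of each respiratory complex in the summed FPKM of the nuclear subunits of all complexes, for ZnPP+OA, OA and Cont livers from left to right. The panel at the right gives the share of the 7 core subunits within complex I. Points are livers, lines the group mean and SD (n = 3). Complex IV is at 27.2% to 30.1% in OA livers and at no more than 24.0% elsewhere, and the core subunits are lowest in OA livers (16.3% to 18.2%).

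Several complex IV subunits have isoforms of muscle, lung, testis or hypoxia, and these stayed minor in liver. Cox4i1 made up 98.9% ± 0.702 of the FPKM of the COX4 pair in ZnPP+OA livers, 99.7% ± 0.0458 in OA livers and 99.9% ± 0.171 in Cont livers (SD, n = 3). Cox6a1, Cox7b and Cox8a took at least 94.3% of their sets in every library. Cox6b2, the testis isoform, was at most 4.74% of the COX6B pair. Ndufa4l2, a paralog of Ndufa4 known to respond to hypoxia, reached 14.2% in Cont 2 and was at 3.15% to 10.1% in ZnPP+OA livers and 1.98% to 4.54% in OA livers. Within the COX7A set the share of Cox7a2 varied among livers of 1 group (28.4%, 39.5% and 52.2% in Cont livers), and Cox7a2l, a supercomplex assembly factor of which C57BL/6 mice carry a shortened form, took most of the rest. Isoforms share sequence and the treatment of multimapping reads is not known, which leaves these shares uncertain.

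Complex V had no called member. The largest differences were in Atp5g3, 1 of 3 genes that encode the same mature c subunit of the proton-driven ring. Atp5g3 was at 38.1, 30.5 and 47.8 CPM in ZnPP+OA livers, 55.6, 132 and 143 CPM in OA livers, and 63.4, 36.1 and 59.7 CPM in Cont livers, so that OA 1 fell within the range of the Cont livers. Its log2 fold change was 1.05 ± 0.38 between OA and Cont livers (adjusted p = 0.131) and −1.50 ± 0.39 between ZnPP+OA and OA livers (adjusted p = 0.0603). Atp5g3 took 60.7%, 56.6% and 59.5% of the FPKM of the 3 c subunit genes in ZnPP+OA livers, 64.6%, 75.6% and 72.3% in OA livers, and 67.3%, 52.4% and 64.3% in Cont livers, with Atp5g1 and Atp5g2 making up the rest (Atp5g1 0.38 ± 0.36 and Atp5g2 0.41 ± 0.33 between OA and Cont livers). Of the F1 subunits, Atp5a1, the alpha subunit, was at 116, 112 and 169 CPM in ZnPP+OA livers, 108, 191 and 206 CPM in OA livers, and 226, 123 and 147 CPM in Cont livers, and the log2 fold changes of Atp5a1, Atp5b and Atp5c1 between OA and Cont livers were between −0.22 and 0.02. Of the other subunits, Atp5d and Atp5h had 0.57 ± 0.35 and −0.46 ± 0.27 between OA and Cont livers, and Atp5k and Atp5o −0.99 ± 0.41 and −0.71 ± 0.34 between ZnPP+OA and OA livers, none of them called.

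Lhpp, which encodes a histidine and pyrophosphate phosphatase and is no subunit of a complex, went the other way. It was at 49.5, 44.6 and 40.3 CPM in ZnPP+OA livers, 10.7, 20.6 and 24.4 CPM in OA livers, and 41.2, 15.4 and 55.6 CPM in Cont livers. ZnPP+OA livers lay above all OA livers, and Cont 2 lay among the OA livers. The log2 fold change was −1.01 ± 0.43 between OA and Cont livers (adjusted p = 0.192) and 1.27 ± 0.43 between ZnPP+OA and OA livers (adjusted p = 0.139). Ppa1, the cytosolic pyrophosphatase, had 0.44 ± 0.36 and −1.07 ± 0.37 in the same comparisons (adjusted p = 0.524 and 0.139), and the non-coding RNA had −0.68 ± 0.63 between ZnPP+OA and OA livers.

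Some genes that work beside the subunits were called. In the list of mobile carriers and exchange proteins (21 genes), 3 rose and none fell in OA livers against Cont livers. Of all 18895 genes tested, 454 rose and 530 fell in that comparison, and 303 rose and 239 fell in ZnPP+OA against OA livers. Slc25a4, which exchanges ADP for ATP across the inner membrane, was at 11.1, 6.81 and 9.62 CPM in ZnPP+OA livers, 27.6, 47.7 and 63.1 CPM in OA livers, and 5.47, 13.2 and 9.63 CPM in Cont livers, a log2 fold change of 2.30 ± 0.40 between OA and Cont livers (adjusted p = 0.00742) and −2.33 ± 0.40 between ZnPP+OA and OA livers (adjusted p = 0.0131). The other genes that rose were Coq8b (1.85 ± 0.40, adjusted p = 0.0194) and Coq7 (1.52 ± 0.39, adjusted p = 0.0429), of coenzyme Q synthesis. Coq8a, a paralog of Coq8b, was higher in ZnPP+OA than in OA livers (1.89 ± 0.33, adjusted p = 0.0131). Atpif1, the inhibitor of reverse ATP synthase activity, rose in OA livers (1.24 ± 0.30, adjusted p = 0.0335), the only call among 6 genes of ATP synthase assembly and regulation, and missed the threshold in ZnPP+OA against OA livers (−1.21 ± 0.30, adjusted p = 0.0512).

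The called assembly genes, Sco2 and Dmac2, were higher in ZnPP+OA than in OA livers. Sco2, a copper chaperone of complex IV, was at 6.19, 16.4 and 12.7 CPM in ZnPP+OA livers, 1.09, 0.786 and 2.60 CPM in OA livers, and 3.96, 5.19 and 14.2 CPM in Cont livers. It fell in OA against Cont livers (−2.39 ± 0.60, adjusted p = 0.0383) and was higher in ZnPP+OA than in OA livers (2.97 ± 0.62, adjusted p = 0.0243), as the only called gene of the 28 tested for assembly of complexes II to IV. Dmac2, of the assembly of the distal membrane arm of complex I, was at 38.3, 54.6 and 45.8 CPM in ZnPP+OA livers and 14.3, 10.1 and 8.96 CPM in OA livers (2.05 ± 0.44, adjusted p = 0.027), the only call among 18 complex I assembly factors. Its Cont livers, at 22.7, 14.3 and 53.2 CPM, overlapped with both groups (OA against Cont −1.44 ± 0.43, adjusted p = 0.0735). Micos10, a core protein of the cristae junctions, fell in ZnPP+OA against OA livers (−1.14 ± 0.27, adjusted p = 0.0382), the only call among 11 supercomplex and cristae genes. The median log2 fold change of the 82 mitochondrial ribosomal protein genes tested was 0.28 between OA and Cont livers and −0.35 between ZnPP+OA and OA livers, against 0.26 and −0.48 for the members. For the 262 genes tested of the cytosolic ribosomal protein list it was 0.15 and −0.41. All 3 ZnPP+OA livers lay below all 3 OA livers for 20 of the 82 and 79 of the 262, against 34 of the 90 members. They lay above them for 7, 11 and 3.

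Among 19 regulators of respiratory genes, 2 rose and 1 fell in OA livers, where 5.21% of all genes were called in either direction. Nfe2l2, which encodes Nrf2, was at 38.1, 47.4 and 29.0 CPM in ZnPP+OA livers, 50.4, 65.4 and 50.7 CPM in OA livers, and 15.6, 19.9 and 30.5 CPM in Cont livers (OA against Cont 1.33 ± 0.32, adjusted p = 0.0334). Myc rose as well (2.01 ± 0.48, adjusted p = 0.0291). Ppargc1b, a coactivator of mitochondrial gene expression, fell to 1.86, 1.33 and 0.753 CPM in OA livers, against 9.89, 12.6 and 7.22 CPM in Cont livers (−2.91 ± 0.68, adjusted p = 0.0276). None of the 19 was called between ZnPP+OA and OA livers, where Myc had the smallest adjusted p (0.0551). With libraries left out in turn, the rise of Slc25a4 in OA livers passed in 9 of 9 fits, the rise of Coq8b in 8 of 9, and the other calls given here for carriers, assembly genes, Atpif1, Micos10 and regulators in 2 to 6 of 9. Without OA 2, all of these calls but the rise of Slc25a4 were lost, with Coq8b at an adjusted p of 0.0934.

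Markers of immune cells and of hepatocytes differed between the groups as well. The summed level of 12 Kupffer cell markers was 302 to 443 CPM in ZnPP+OA livers, 872 to 1224 CPM in OA livers and 178 to 411 CPM in Cont livers. Of the 12, 9 rose in OA against Cont livers and 4 fell in ZnPP+OA against OA livers, and none was at 0 in any library. Of all genes tested, 5.21% and 2.87% were called in these comparisons, in either direction. For 12 monocyte markers the sum was 219 to 317 CPM in ZnPP+OA livers, 562 to 932 CPM in OA livers and 108 to 215 CPM in Cont livers, with 8 called higher and 6 called lower in the same comparisons. Of 12 neutrophil markers, 2 to 6 were at 0 in a library, and of the 9 tested 2 were called higher and 1 lower in the same comparisons. Their sum was 252 to 312 CPM in ZnPP+OA livers, 773 to 1632 CPM in OA livers and 53.7 to 171 CPM in Cont livers, of which Lcn2, also an acute phase gene of hepatocytes, made up 85.2% to 97.8%. The 11 markers without Lcn2 summed to 13.0 to 17.1 CPM in ZnPP+OA livers, 20.9 to 69.0 CPM in OA livers and 4.29 to 21.4 CPM in Cont livers, where OA and Cont livers overlapped. The 12 lymphocyte markers, low throughout, were lowest in OA livers. They summed to 5.27 to 7.08 CPM in ZnPP+OA livers, 1.29 to 2.30 CPM in OA livers and 7.17 to 20.1 CPM in Cont livers. All 12 had a log2 fold change below 0 between OA and Cont livers (median −2.91), 1 of them called. Between ZnPP+OA and OA livers 11 were above 0 (median 1.80), 1 of them called. Of the 12 genes of secreted hepatocyte proteins, 11 had a log2 fold change below 0 between OA and Cont livers (median −1.06, against 0.09 over all genes), 3 of them called. Between ZnPP+OA and OA livers their median was 0.40, against −0.07 over all genes, and none was called, with 3 at an unadjusted p under 0.05. Their sum overlapped between the groups, at 24208 to 31771 CPM in ZnPP+OA livers, 18086 to 33347 CPM in OA livers and 25531 to 76469 CPM in Cont livers. The part of these cells in the levels of Cox7a2, Ndufa4 and the other members was not tested.

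The number of members called depended on the scaling. With library totals alone, which leave the mitochondrial share in the denominator, the median of all genes moved by 1.39 between OA and Cont livers and by −1.78 between ZnPP+OA and OA livers, and 10 members were called higher in the first and 70 lower in the second. With limma on log2(FPKM + 1) the shifts were 1.10 and −1.20, and 70 of 88 members were called higher and 85 lower. Less the median of all genes, the median of the members was 0.17 between OA and Cont livers (0.02 to 1.54 over 25 alternatives) and −0.41 between ZnPP+OA and OA livers (−1.90 to −0.21). The lowest value of the first and the highest of the second came without OA 2 and OA 3, the livers with the least mitochondrial RNA. Scaled to the counts of cytosolic ribosomal proteins, the members' own median turned to −0.32 between OA and Cont livers and 0.24 between ZnPP+OA and OA livers, so the direction of the members holds only relative to other genes.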

How the data were processed

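Per the labels, poly(A) RNA of each liver was sequenced as a stranded paired library. The authors deposited 1 table with raw counts per gene and FPKM. Tools named in the submitters' processing notes are StringTie 2.1.6, HISAT2 2.2.1, cutadapt 1.9, edgeR and DESeq2, with build mm10. Which of them made which column is not given there. Only 1 of 93 members had the position that GENCODE M21 gives, so no table position is printed. FPKM followed the counts in 88 members, over libraries with at least 50 counts (ratio within 1.04-fold).

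Genes were kept with filterByExpr (min.count 10, min.total.count 15), scaled by TMM and tested in 1 fit of the 3 groups with edgeR 4.0.16 (quasi-likelihood, R 4.3.3), adjusted by Benjamini and Hochberg over 18895 genes. Tested on simulated data with known changes, the fit called few unchanged genes and missed many changed ones. The changed genes were drawn from all genes tested, with changes larger than those of most members. The power to call a member was therefore not measured. Alternatives used DESeq2 1.42.0, limma 3.58.1 on log2 FPKM (pseudocount 1 or 0.1, at least 1 FPKM in 3 libraries or no filter), other scalings and filters, and left-out libraries. P-values measure the spread between mice, 1 library each, with 1 estimate shared by the 3 groups. Taken by group, the biological coefficient of variation (the relative spread between livers) was 0.67 in ZnPP+OA, 0.42 in OA and 0.88 in Cont livers. The Cont livers therefore also bear on the p-values of ZnPP+OA against OA livers. Named members were those called, the 3 smallest p per complex and the extreme log2 fold changes in the 2 comparisons with OA, the 2 highest FPKM per complex, and isoforms. From other lists, called genes and those with the smallest p were eligible. The members and lists were chosen with earlier results of these data known. Values of 1 member are not reported here by name.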

Additional observations from a re-analysis of the deposited data

How the results depend on the processing

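Counts of called members depended on the processing. Between OA and Cont livers (1 called) the count was 0 with DESeq2 size factors, with the members' own counts, with cytosolic ribosomal protein counts, in the 6 compared libraries alone, without Cont 1 and Cont 2, and without OA 2 and OA 3; it was 10 with library totals alone, 3 with no filter and 5 with DESeq2 (3 higher, 2 lower). With limma it was 70 on log2(FPKM + 1), 62 on log2(FPKM + 0.1) and 16 with no filter. Between ZnPP+OA and OA livers (2 called, lower) the count was 1 (Lhpp, higher) with the members' own counts and with cytosolic ribosomal protein counts, 0 without OA 2 and OA 3, 70 with library totals alone, 10 with no filter, 5 with at least 10 counts in every library, 9 with DESeq2 (8 lower, 1 higher), 10 in the 6 compared libraries (9 lower, 1 higher) and 12 without Cont 1 and Cont 2. With limma it was 85, 81 and 47 in the same order. Leaving out any library gave 0 to 4 and 0 to 8 called members. Between ZnPP+OA and Cont livers the count was 0 in all 25 alternatives. Those without OA 2 and OA 3, with cytosolic ribosomal protein counts, and without mitochondrial genes and their copies were chosen after seeing the data. Where 1 library of a group was left, it was assumed to vary like the other groups.

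Replicate numbers did not pair the livers (r of −0.10 to 0.014 over 9 same-numbered pairs), and with the number as a replicate block 0 members were called in each comparison.

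Less all genes, the members' median moved by more than the spread between livers (0.16) with limma on log2(FPKM + 1), to 0.50 between OA and Cont livers and −0.77 between ZnPP+OA and OA livers, and without a filter to 1.54 and −1.90. Between ZnPP+OA and OA livers it also moved by more than this without OA 2 and OA 3, to −0.21, and without OA 1, to −0.58. Left-out libraries gave −0.58 to −0.33 between ZnPP+OA and OA livers, and 0.05 to 0.25 between OA and Cont livers.

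On log2(FPKM + 1), some uncalled members changed sign and were called: the non-coding RNA ENSMUSG00000120425 (1.17 between OA and Cont livers), and, between ZnPP+OA and OA livers, Atp5h (−1.51), Ndufa4l2 (−1.01), Ndufb11 (−1.69), Ndufs3 (−1.16) and Sdhb (−1.50), and with a pseudocount of 0.1 Ndufa4l2 (−1.72) and Ndufb11 (−1.73). The scaling of FPKM by the whole library includes its mitochondrial RNA. Cont 2 limits depth most, with 252 counts for Cox7a2.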
